A study of Mus musculus with 2 samples.

Results

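The Mme Cdh6 Emcn mesenchyme is a set of connective-tissue cells of the embryonic mouse cochlea, picked out by 5 genes. They are Mme, the membrane endopeptidase neprilysin; Cdh6, a type II cadherin; Emcn, the sialomucin endomucin; Efemp1, which encodes fibulin-3; and Tgfbi, a secreted matrix protein induced by TGF-beta. The cells were chosen by these RNAs: at least 3 of the 5 genes detected, no count of the endothelial genes Cldn5, Cdh5 and Pecam1, the epithelial gene Epcam or the transcription factor gene Osr1, and under 5 counts in all of the division genes Mki67, Top2a and Cenpf. Cell barcodes had to hold at least 1000 unique molecular identifiers (UMIs, 1 per captured RNA molecule) and 500 genes, with at most 10% mitochondrial UMIs. In all, 2765 of 15813 passing barcodes met the rule and are called members below. Cochleae of mouse embryos at stage E16.5 on a mixed 129/SvEv and C57BL/6N background were dissociated, and cells were captured for 10x Genomics 3′ RNA sequencing. One library was wild type and the other was Emx2Cre;Ptch1f/f, here called the mutant, in which Cre recombinase expressed from Emx2 acts on a floxed Ptch1 gene. Whether the wild-type embryos carried the Cre or a floxed allele is not stated in the labels. Each library pooled 8 cochleae, so each genotype has 1 sample, the cells of a library are not replicates, and no difference between genotypes can be tested. Intervals are exact 95% intervals that cover counting error alone.

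The periotic mesenchyme surrounds the epithelium of the cochlear duct and gives rise to the spiral ligament and limbus, the lining of the scalae and the bony capsule. It exchanges FGF, WNT, BMP, retinoic acid and Hedgehog signals with the epithelium, and its cells are known for the transcription factors Pou3f4 and Tbx18. Ptch1 encodes the receptor that holds the Hedgehog pathway down until a ligand binds, and it is also a target that the active pathway raises. The Cre driver Emx2 is an epithelial gene in the cochlea, and wild-type members held 0 Emx2 UMIs and mutant members 3, at or under the floor of 3 counts. The sources used here do not say which exons are floxed, and 3′ counts do not show whether they were deleted in a cell.

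Members made up 816 of 6440 passing barcodes in the wild-type library (12.7%, interval 11.9% to 13.5%) and 1949 of 9373 in the mutant library (20.8%, 20.0% to 21.6%). Members were picked without asking for the 8 mesenchyme genes Col1a1, Col1a2, Col3a1, Pdgfra, Dcn, Lum, Prrx1 and Twist1. Other mesenchyme was defined as passing barcodes outside the rule with at least 3 of these 8 genes detected. It had the same limits on endothelial, epithelial and division genes. It held 1763 wild-type and 1873 mutant barcodes, so that members were 31.6% (29.8% to 33.5%) of the 2579 wild-type barcodes of both kinds and 51.0% (49.4% to 52.6%) of the 3822 mutant ones. The libraries also differed in the median mitochondrial part of UMIs, 2.4% in wild-type and 4.4% in mutant members. Over all passing barcodes it was 2.4% and 4.3%. The median wild-type member held 6766.5 UMIs and 2609 genes and the median mutant member 8312 UMIs and 3032 genes, and a marker is easier to detect in a deeper barcode. With every barcode thinned to 2000 UMIs before the rule was applied, 571 of 6440 wild-type barcodes (8.87%, 8.18% to 9.59%) and 1446 of 8081 mutant barcodes (17.9%, 17.1% to 18.7%) met it, and 1292 mutant barcodes were too shallow to count. Of these 571 and 1446 barcodes, 370 and 943 were also members at full depth. Thinning removes counts of the excluded genes as well as of the markers, so the remaining barcodes met the rule only after thinning. The deposited matrices held 61130806 (wild type) and 100135532 (mutant) UMIs, and the shallowest passing barcode had 3352 UMIs in the wild type, with 1961 mutant barcodes below that, 90 of them members. With those barcodes left out, members were 1859 of 7412 mutant barcodes (25.1%). The libraries shared 18 barcode sequences among passing barcodes and 0 among members. The mutant share was above the wild-type share in each of these forms. With 1 library per genotype, a difference between libraries cannot be told apart from one between genotypes.

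The count of detected markers shows where the rule cuts. Among barcodes that met every other condition, 637 wild-type barcodes (23.3% of 2734) and 789 mutant barcodes (17.5% of 4498) had 2 markers and stayed out, while 321 (11.7%) and 691 (15.4%) had 3 and were taken in. All 5 markers were detected in 240 wild-type and 667 mutant members. The Osr1 condition removed 362 of the 1178 wild-type barcodes that met the rest of the rule (30.7%, 28.1% to 33.5%) and 824 of 2773 mutant barcodes (29.7%, 28.0% to 31.5%).

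**Figure D1:**
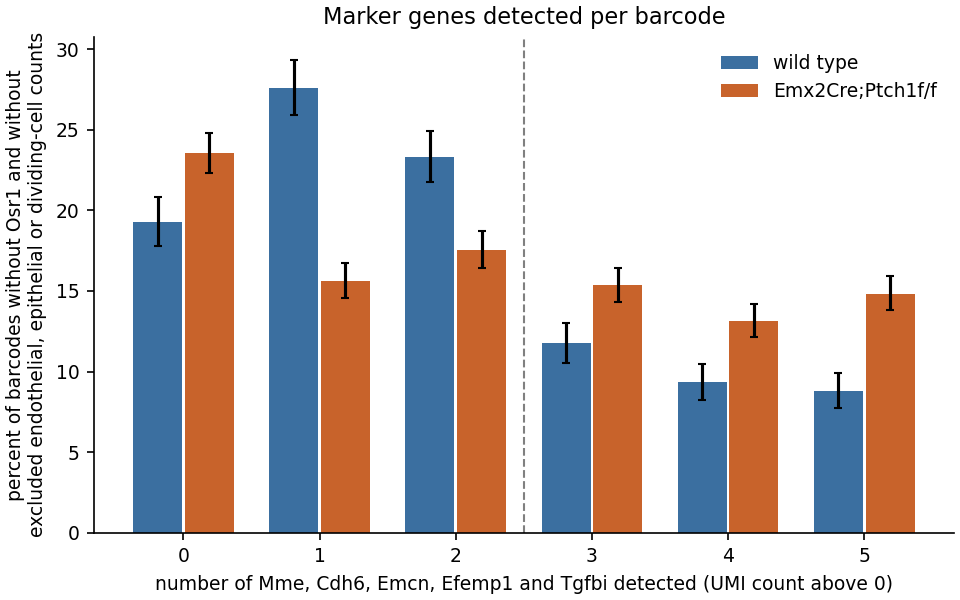
Percent of barcodes (vertical axis) by the number of the 5 marker genes detected (horizontal axis), for wild-type (blue) and mutant (orange) barcodes without Osr1, endothelial or epithelial counts and under 5 division-gene counts; error bars are exact 95% binomial intervals and the dashed line is the limit of the rule. The share with 5 markers was 8.78% for wild-type and 14.8% for mutant barcodes. Wild-type shares were 23.3% at 2 markers and 11.7% at 3, and mutant shares 17.5% and 15.4%.

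The marker levels are what chose the members and are given as a description, in CPM, UMIs scaled to a total of 1000000 over the members of a library. Where a pair of values is given with no group named, the wild type comes first and the mutant second. Mme (chromosome 3, 63241537 to 63386030 in GRCm38) was at 538 CPM in wild-type and 505 CPM in mutant members, against 46.5 and 78.0 in mesenchyme with 2 markers or fewer. Cdh6 (chromosome 15, 13028701 to 13173675) was at 236 CPM in wild-type and 231 CPM in mutant members, against 19.6 and 18.0 there. Emcn (chromosome 3, 137341067 to 137432185) was at 423 CPM in wild-type and 589 CPM in mutant members, against 107 and 129.8. Emcn is best known from endothelial cells, and here it was counted in barcodes without a UMI of Cldn5, Cdh5 or Pecam1. Efemp1 (chromosome 11, 28853204 to 28926743) was at 244 CPM in wild-type and 225 CPM in mutant members, against 43.8 and 59.8. Tgfbi (chromosome 13, 56609523 to 56639562) was at 477 CPM in wild-type and 727 CPM in mutant members, against 175 and 265. Log2 ratios of mutant over wild-type members were -0.09 for Mme, -0.03 for Cdh6 (interval -0.11 to 0.06) and -0.12 for Efemp1. They were 0.48 for Emcn and 0.61 for Tgfbi. Detection of these genes chose the members, so these ratios cannot show whether a marker differs between genotypes. In all passing barcodes outside the members, the ratios were positive for Mme (0.57), Cdh6 (0.59), Emcn (0.78), Efemp1 (0.33) and Tgfbi (0.90). In mesenchyme with 2 markers or fewer, Cdh6 alone had a negative ratio (-0.12).

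A marker can be read without its own part in the choice by asking for 3 of the other 4. Chosen in that way, Mme was detected in 74.0% of 639 wild-type and 78.6% of 1523 mutant barcodes, and Cdh6 in 57.2% of 682 and 57.2% of 1696. Emcn was detected in 79.6% of 588 and 82.2% of 1483, and Efemp1 in 60.7% of 680 and 63.8% of 1671. Tgfbi was detected in 90.2% of 528 and 96.0% of 1299. In mesenchyme with 2 markers or fewer, detection ranged from 8.99% for Cdh6 to 51.9% for Tgfbi in the wild type, and from 8.62% to 64.5% for the same genes in the mutant. In barcodes with an Epcam UMI, at median depths of 8063 and 8592 UMIs, it ranged from 16.7% for Cdh6 to 41.9% for Tgfbi among wild-type and from 14.4% to 31.3% among mutant barcodes. Each of the 5 genes was detected in a larger share of barcodes chosen by the other 4 than in either of these groups. The group with 2 markers or fewer was itself set by the 5 genes, so low detection there is partly built in. The Epcam barcodes were not chosen by the 5 genes. Tgfbi was the marker with the highest share among barcodes that should lack the set.

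The members carried the RNA of periotic mesenchyme. At least 1 of Otor, Pou3f4 and Tbx18 was detected in 813 of 816 wild-type members (99.6%) and 1925 of 1949 mutant members (98.8%). Otor, which encodes the cochlear mesenchyme protein otoraplin, was at 3605 CPM in wild-type and 3196 CPM in mutant members. Pou3f4 was at 420.2 CPM in wild-type and 340.3 CPM in mutant members, and Tbx18 at 317 CPM in wild-type and 376 CPM in mutant members. At least 3 of the 8 mesenchyme genes were found in 666 wild-type members (81.6%) and 1617 mutant members (83.0%). Free RNA gives such genes some counts in every barcode, so detection was also compared at 2000 UMIs with barcodes that hold an Epcam UMI, leaving out 38 mutant members that were shallower. Pou3f4 was then detected in 51.8% of wild-type and 44.5% of mutant members, against 19.9% and 16.0% of Epcam barcodes, and Tbx18 in 43.4% and 48.7%, against 18.7% and 16.9%. Otor was detected in 85.3% and 74.7% of members, but also in 66.3% and 30.5% of Epcam barcodes. The fibrillar collagen gene Col3a1 was detected in 61.2% and 57.2%, against 33.6% and 19.9%. Col1a1 was at 38.9 CPM in wild-type and 29.8 CPM in mutant members, and its detection in 4.41% of wild-type members lay below the 4.86% of Epcam barcodes, at the level of background, while its 3.92% of mutant members lay above the 1.01% of Epcam barcodes. In members of cluster 2, described below, Col1a1 was at 78.8 CPM (wild type) and 116 CPM (mutant). Markers of other cell types ranged from absent to abundant in members. The mesothelial genes Msln, Wt1, Lrrn4 and Muc16 and the muscle genes Myod1, Myf5 and Pax7 had 0 counts in members of both libraries. Of 14 endothelial genes, the 3 used in the rule were at 0 by choice and 2 reached 10 CPM, namely Ramp2 at 61.2 CPM in wild-type and 64.9 CPM in mutant members and Egfl7 at 12.0 CPM in wild-type and 14.6 CPM in mutant members. The summed level of 11 pericyte and smooth muscle genes was 249.5 CPM in wild-type and 204.96 CPM in mutant members, against 216 and 283 CPM in other mesenchyme. Its highest gene was Pdgfrb, a growth factor receptor gene of pericytes and fibroblasts, at 107 CPM in wild-type and 99.3 CPM in mutant members, against 62.0 and 78.4 in other mesenchyme, followed by the mural cell gene Rgs5 at 67.3 CPM in wild-type and 33.5 CPM in mutant members, and the lowest were the smooth muscle genes Acta2, at 0.820 and 1.05 CPM, and Myh11, at 0.328 and 0.0584 CPM. Cartilage genes were abundant: 9 of them summed to 2529 CPM in wild-type and 1843 CPM in mutant members, most of it from the collagen genes Col2a1, at 1591 CPM in wild-type and 1187 CPM in mutant members, and Col9a1, at 669.8 CPM in wild-type and 393 CPM in mutant members. Both collagen genes were higher in other mesenchyme of the same library, Col2a1 at 1979.6 and 1251 CPM and Col9a1 at 1053 and 446 CPM. A list of 9 meninges genes summed to 269 and 232 CPM. RNA of neural and blood cells was also present. The summed level of 8 neuronal genes was 394.9 CPM in wild-type and 248.4 CPM in mutant members, with none of the 8 at 0, and that of 7 glial genes was 178.8 and 124.0 CPM. Haemoglobin transcripts made up 0.747% and 1.18% of member UMIs, with Hbb-bs alone at 3535 CPM in wild-type and 5806 CPM in mutant members, and in each library 1 barcode held close to the same part of them, 45.6% (wild type) and 47.0% (mutant). The part of these other RNAs in the results below was not tested.

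Clustering without the genes of the rule spread the members over several clusters, so the label covers a marker set shared by more than one kind of mesenchymal cell. Both libraries were clustered together into 28 clusters, numbered here by how many members they held, and clusters 1 to 5 held 717 of 816 wild-type members (87.9%) and 1802 of 1949 mutant members (92.5%). Cluster 1, led by Ccn3, Tnc, Robo2, Dach1 and Spon2, held 311 wild-type members (38.1%) and 852 mutant members (43.7%). Of all its barcodes, 56.9% of 547 wild-type and 60.5% of 1409 mutant ones were members, and a further 174 and 363 met the rule except for a UMI of Osr1. Cluster 2, led by Penk, Col8a1, Gal, Gdf10 and Ibsp, held 22.3% and 23.2% of members. Cluster 3, led by Wnt2, Ucma, Fndc1 and Coch, held 10.7% and 10.3%, and cluster 4, led by Car3, Cytl1 and Col14a1, held 9.19% and 9.85%. Cluster 5, led by Aldh1a2, Kcnk2 and Wnt6, held 7.60% and 5.44%. The order of clusters 1 to 5 by members was the same in both libraries. Cluster 6, led by the mural cell genes Rgs5 and Acta2, held 23 members of each library, and cluster 7, whose mutant barcodes had a median of 1679.5 UMIs, held 4 wild-type and 42 mutant members. Clusters led by neuronal, glial, erythroid or myeloid genes held 41 wild-type members (5.02%) and 27 mutant members (1.39%). Cluster 8, led by histone genes, held 7 wild-type and 30 mutant members, and cluster 11, led by division genes, held 5 and 17. Cluster 12, led by Rubie, Lmo3 and Tac1, held 16 and 6, and cluster 14, led by S100a1, Prox1 and Tectb, held 3 and 2.

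**Figure D2:**
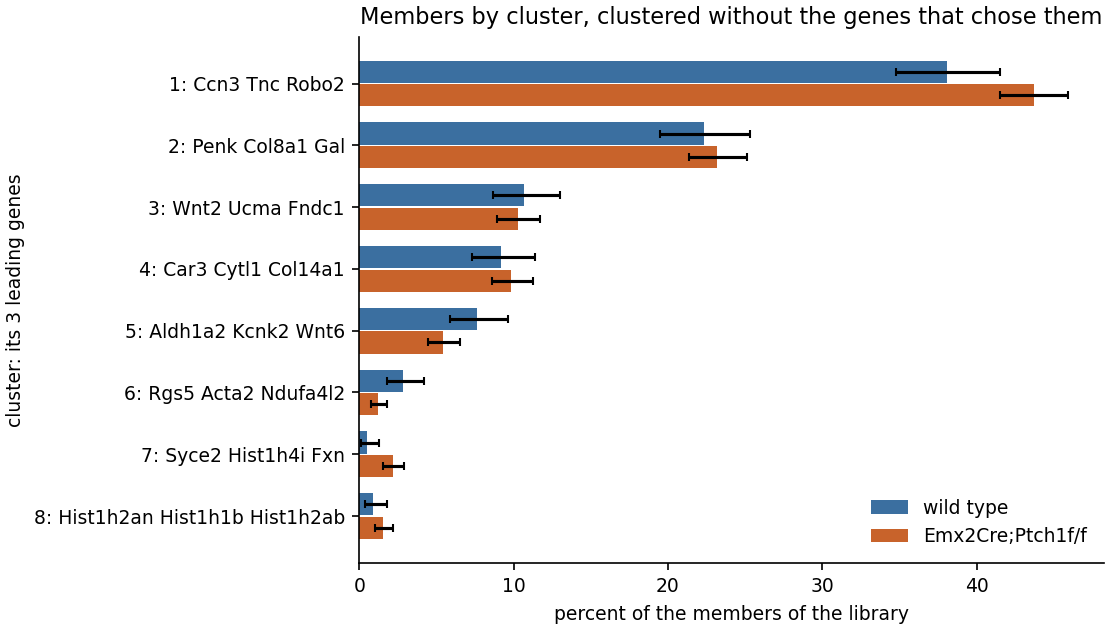
Percent of the members of each library (horizontal axis) in the 8 clusters that held most members (vertical axis, with 3 leading genes each), for the wild type (blue) and the mutant (orange); error bars are exact 95% binomial intervals. Cluster 1 held 38.1% and 43.7% of members and cluster 2 held 22.3% and 23.2%, and cluster 3, the next, held 10.7% and 10.3%.

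Clusters 1 and 2 show how far members differ among themselves; their genes took part in the clustering, so these levels are a description. Ccn3, a matricellular protein gene, was at 210.2 CPM in wild-type and 180.0 CPM in mutant members of cluster 1, against 10.6 and 3.60 in those of cluster 2. The tenascin-C gene Tnc was at 289 and 263 CPM in cluster 1 against 12.9 and 20.8 in cluster 2. Itga8, which encodes an integrin chain that binds tenascin-C and nephronectin, was at 167 and 197 CPM against 17.4 and 20.2. The axon guidance receptor gene Robo2 was at 279 and 306 CPM against 65.9 and 82.8. Other genes had the higher level in cluster 2. The type I collagen gene Col1a2 was at 1833 and 1428 CPM in cluster 2 against 298 and 238 in cluster 1. The chemokine gene Cxcl12 was at 851 and 905 CPM in cluster 2 against 91.8 and 93.0. The growth factor gene Igf1 was at 496 and 332 CPM in cluster 2 against 52.3 and 12.5. Members thus included barcodes poor in type I collagen RNA with Tnc and Ccn3, and barcodes rich in it with Cxcl12 and Igf1. Ucma, a cartilage matrix protein gene, was at 119.9 CPM in wild-type members of cluster 3 and at 29.2 in mutant ones, and the carbonic anhydrase gene Car3 was at 947 and 881 CPM in members of cluster 4.

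Compared with all other mesenchyme, few genes stood at a 2-fold difference in both libraries. Of 12220 measured genes (at least 50 UMIs in the members of both libraries together), 11 were at least 2-fold higher in members (0.09%) and 10 at least 2-fold lower (0.0818%), on the scale of log2(CPM + 1). The members were chosen by their RNA, so these differences carry no test. The other mesenchyme also holds 295 wild-type and 736 mutant barcodes with 3 or more markers that were left out for Osr1, and against mesenchyme with 2 markers or fewer, a comparison added after the data were seen, the counts were 65 and 37 genes. On the higher side, Tnc was at 115 and 127 CPM in members, against 22.0 and 50.3 in other mesenchyme. Ccn3 was at 80.9 and 84.1 CPM, against 16.8 and 27.5. Chst1, which encodes a sulfotransferase of keratan sulfate, was at 60.0 and 57.2 CPM, against 20.0 and 27.6. In all 3 genes the member level was above the other mesenchyme of the same library and close between the libraries. Of the 29 measured proteoglycan and matricellular genes, Tnc and Ccn3 were the 2 that were 2-fold higher in members of both libraries, and of the measured interstitial collagen, basement membrane and elastic fibre genes 0 were.

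Enpp2, which encodes autotaxin, the enzyme that makes lysophosphatidic acid, was at 85.0 and 104 CPM, against 36.4 and 46.2 in other mesenchyme. Akap12, a scaffold of protein kinase A, was at 496 and 477 CPM, against 229 and 282. Pde8a, a phosphodiesterase that breaks down cyclic AMP, was at 13.3 and 30.2 CPM, against 3.42 and 12.0. Grb14, an adaptor of the insulin receptor, differed by less, at 43.0 and 45.4 CPM against 23.4 and 24.1. Rgs16, a regulator of G protein signalling, was at 40.9 and 58.4 CPM, against 24.1 and 34.8. The transcriptional regulator gene Dach1 was at 116 and 120.3 CPM, against 34.9 and 68.6, so that its margin was wider in the wild type. The remaining genes named by the same rule were Frmd4b, Tenm4, Pgm2l1, Sbno2, Atp8a2 and Notum, with Tenm4, a teneurin gene, at 118 and 167 CPM in members, against 63.9 and 101.

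**Figure D3:**
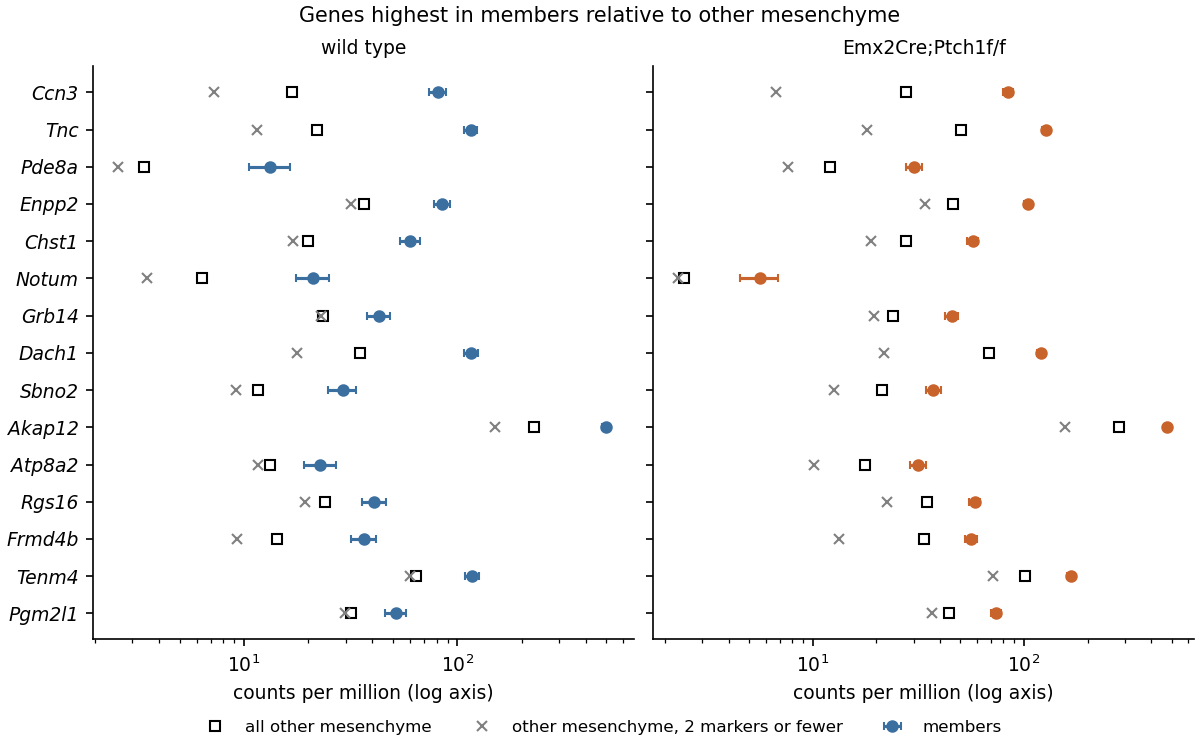
CPM on a log axis (horizontal) of the 15 genes (vertical axis) that stood highest in members (filled circles, with exact 95% Poisson intervals) relative to all other mesenchyme (open squares), with other mesenchyme of 2 markers or fewer as crosses, wild type on the left and mutant on the right. Tnc lay at 115.5 and 126.8 CPM in members and at 22.0 and 50.3 CPM in other mesenchyme.

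On the lower side, Dcn, which encodes the small proteoglycan decorin, was at 310.1 and 204 CPM in members, against 562 and 348 in other mesenchyme. Ogn, the related proteoglycan osteoglycin, was at 235 and 111 CPM, against 442 and 177. The homeobox gene Meox2 was at 25.9 and 24.0 CPM, against 60.2 and 56.8. The imprinted long noncoding RNA H19 was at 228 and 181 CPM, against 392 and 310.3, and the imprinted Delta-like gene Dlk1 at 18.2 and 20.9 CPM, against 33.5 and 54.3. All 5 were lower in members than in other mesenchyme of both libraries. Coch, the cochlin gene of fibrocytes, was at 134 and 101 CPM against 338 and 144; it lies outside the naming rule and was picked after its values were seen. The immediate early and heat shock genes, which dissociation is known to induce, had a median log2 ratio of members over other mesenchyme of 0.47 (wild type) and 0.27 (mutant) over 24 genes, beside 0.00 and 0.01 over all measured genes. Egr1 was at 984 and 590.4 CPM in members, against 601 and 459.6.

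The mesenchyme nearest to the members by the rule was the Osr1-positive mesenchyme that had 3 or more markers, 295 wild-type and 736 mutant barcodes, and Osr1 itself was used to part them. Tnc was at 63.9 and 90.8 CPM in these barcodes and Ccn3 at 54.8 and 53.7 CPM, between the members and the mesenchyme with 2 markers or fewer (11.5 and 18.0 for Tnc, 7.22 and 6.69 for Ccn3). Dach1, at 104 and 127 CPM, and Akap12, at 540.1 and 439.8 CPM, were close to their member levels. Aldh1a2, which encodes a retinoic acid synthesis enzyme, was at 76.0 and 46.5 CPM there and at 8.86 and 3.68 in members, and the ligand gene Wnt6 was at 57.8 and 30.2 CPM against 19.2 and 6.37. The homeobox gene Meox2 was at 58.6 and 47.4 CPM, a level like that of all other mesenchyme. The BMP family gene Gdf10 went the other way, at 79.0 and 79.7 CPM against 132 and 139 in members. The Osr1-positive barcodes thus carried more Aldh1a2, Wnt6 and Meox2 RNA and less Gdf10, Tnc and Ccn3 RNA than members in both libraries. They were 295 of the 1763 wild-type and 736 of the 1873 mutant barcodes of other mesenchyme, so other mesenchyme differed between the libraries in its mix.

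Between genotypes, members differed in few genes by 2-fold or more. Of the 12220 measured genes, 92 were at least 2-fold higher in mutant members (0.753%) and 83 at least 2-fold lower (0.679%), and the median log2 ratio over all measured genes was 0.04. Some of these genes were also 2-fold apart in the other cells, which come from the same 2 libraries, so the counts that follow are not independent of each other. Of the 92 higher genes, 38 were also 2-fold higher in other mesenchyme (41.3% of the 92, and 43.7% of the 87 genes 2-fold higher there). Of the 83 lower genes, 44 were also 2-fold lower there (53.0% of the 83, and 29.7% of 148). In all passing barcodes outside the members, 30 of the 92 and 43 of the 83 were 2-fold apart in the same direction. Log2 ratios below are of mutant over wild-type CPM with 1 CPM added to each, and their intervals are of the ratio of counts without that addition.

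**Figure D4:**
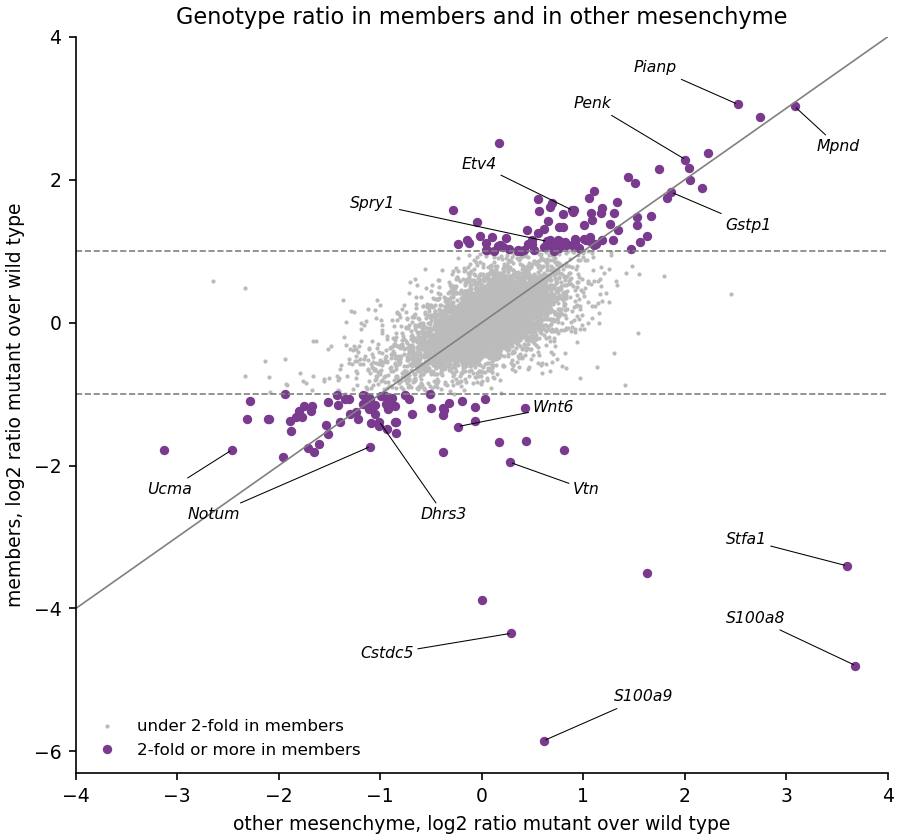
Log2 ratio of mutant over wild type for each of 12220 measured genes, in other mesenchyme (horizontal axis) and in members (vertical axis); purple points are at 2-fold or more in members, dashed lines mark 2-fold, and the solid diagonal marks equal ratios. Penk, Pianp, Mpnd and Gstp1 lie near the diagonal, Etv4 and Spry1 lie above it, Wnt6 and Vtn lie below it, and S100a8, S100a9, Stfa1 and Cstdc5 lie far below it.

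Among the genes with the highest ratios, Penk, which encodes the opioid peptide precursor proenkephalin, stood at 23.8 CPM in wild-type and 119.6 CPM in mutant members, from 145 and 2046 UMIs (log2 ratio 2.28, 2.09 to 2.58). It was detected in 8.09% of wild-type and 17.6% of mutant members, and at 2000 UMIs per barcode in 3.43% and 11.1%, against 1.07% and 1.66% of barcodes with an Epcam UMI. The gene (chromosome 4, 4133531 to 4138819) belonged to cluster 2, whose members held 92.5 CPM (wild type) and 538 CPM (mutant), whereas members of cluster 1 held 0.951 and 4.36. Other mesenchyme held 25.7 CPM (wild type) and 106 CPM (mutant), a step like that of the members.

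Pianp, which encodes a neural membrane protein, was at 4.10 CPM in wild-type and 41.4 CPM in mutant members (log2 ratio 3.06, against 2.42 in all other passing barcodes). Mpnd, a gene of the MPN domain protease family, was at 6.23 CPM in wild-type and 57.9 CPM in mutant members (log2 ratio 3.03, against 2.81). Gstp1, a glutathione transferase gene with a near-identical neighbour that can share its reads, was at 8.86 CPM in wild-type and 33.9 CPM in mutant members (log2 ratio 1.82, against 1.74). These 3 genes were higher by a like ratio in the rest of the mutant library. The same held for the predicted genes Gm47283 (2.88 and 2.79) and Gm10076 (499.7 and 1996 CPM in members, with a log2 ratio of 2.07 in all other passing barcodes), and on the lower side for Snhg3 (-1.88 and -2.13), Wdr89 (-1.70 and -1.63), Samd1 (-1.43 and -1.45) and Gm11361 (-1.41 and -1.06). Predicted genes may share reads with near-identical copies, so their levels are uncertain. The file headers name different Cell Ranger versions for the libraries, 6.0.0 for the wild type and 5.0.1 for the mutant, and the sample descriptions name different kit versions; the part of either was not tested. Of the other genes named on the higher side, Tafa4 (log2 ratio 1.61), Sptb (1.61), Rmrp (1.57) and 1700120C14Rik (1.73) had ratios of 0.83, 1.18, 0.96 and 0.70 in all other passing barcodes.

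On the lower side, 4 genes of neutrophil granules and cystatins rested on a single cell. S100a9 was at 90.4 CPM in wild-type members, and all 551 UMIs came from 1 barcode. The same barcode held 460 of 461 UMIs of S100a8, 144 of 145 of Stfa1 and 146 of 147 of Cstdc5. It had 11056 UMIs, 3405 genes and 3 of the 5 markers, and it fell in cluster 15, which S100a9 and S100a8 lead. Without the highest barcode of each gene in each library, the log2 ratios turned from -5.85 to 0.61 (S100a9), from -4.80 to 1.08 (S100a8), from -3.40 to 0.86 (Stfa1) and from -4.35 to 0.01 (Cstdc5). These values describe 1 barcode among 816 members. Vtn, the vitronectin gene, was at 21.5 CPM in wild-type and 4.79 CPM in mutant members, from 131 and 82 UMIs. Its level was 102 and 38.2 CPM in members of cluster 5 and 1.90 and 1.69 in those of cluster 1. Vtn was also a leading gene of the mural cluster 6, which held 2.82% of wild-type and 1.18% of mutant members. The part of that cluster in the Vtn ratio was not tested.

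In the WNT pathway, 32 of 39 listed genes were measured, of which 1 was 2-fold higher and 3 were 2-fold lower in mutant members, with a median log2 ratio of -0.01. Notum encodes a secreted enzyme that inactivates WNT ligands and is itself a WNT target; it was at 21.0 CPM in wild-type and 5.61 CPM in mutant members, from 128 and 96 UMIs (log2 ratio -1.73, -2.30 to -1.51). It lay mostly in cluster 1, at 51.4 CPM (wild type) and 11.0 CPM (mutant). Other mesenchyme held less in both libraries, 6.38 and 2.44 CPM, at a log2 ratio of -1.10. Notum was named both among genes that separated members from other mesenchyme and among those lowest in the mutant. The ligand gene Wnt6 was at 19.2 CPM in wild-type and 6.37 CPM in mutant members (log2 ratio -1.45, against -0.23 in other mesenchyme), and in cluster 1 at 24.3 and 3.94 CPM. In the Osr1-positive mesenchyme with 3 or more markers, described above, Wnt6 was also lower in the mutant. That mesenchyme was 295 of 1763 wild-type and 736 of 1873 mutant barcodes of other mesenchyme. The WNT inhibitor gene Wif1 was at 17.2 CPM in wild-type and 7.31 CPM in mutant members (log2 ratio -1.13). Nkd2, an intracellular inhibitor, was at 12.6 CPM in wild-type and 26.4 CPM in mutant members (log2 ratio 1.01). Axin2, the general WNT target, was lower by less than 2-fold, at 85.8 CPM in wild-type and 62.4 CPM in mutant members (log2 ratio -0.45, -0.61 to -0.31), and Lef1 differed little, at 198 CPM in wild-type and 171 CPM in mutant members (log2 ratio -0.21).

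In the FGF pathway, 16 of 19 listed genes were measured, and 2 were 2-fold higher in mutant members and 0 lower, with a median log2 ratio of 0.10. Etv4, an ETS transcription factor gene that FGF signalling induces, was at 21.3 CPM in wild-type and 65.4 CPM in mutant members, from 130 and 1119 UMIs (log2 ratio 1.57, 1.35 to 1.89). Its level in clusters 1, 2, 3 and 4 was 24.3, 12.1, 13.0 and 34.4 CPM in wild-type members and 71.9, 31.3, 49.5 and 127 CPM in mutant members. The mutant level was above the wild-type level in these 4 clusters, and in cluster 5 it was not, at 29.4 and 26.5 CPM. Spry1, a feedback inhibitor of the pathway, was at 11.5 CPM in wild-type and 26.5 CPM in mutant members (log2 ratio 1.14, 0.84 to 1.59). The related genes Etv5 (0.64), Spry4 (0.53) and Spred2 (0.34) had log2 ratios above 0 and under 1, while Dusp6 (0.05) and Spry2 (-0.07) lay close to 0. Etv4 was also higher in other mesenchyme, at 26.9 and 50.7 CPM (log2 ratio 0.89), and in all other passing barcodes (1.03). The lowest of the list was the ligand gene Fgf10, at 7.22 CPM in wild-type and 3.92 CPM in mutant members (log2 ratio -0.74, -1.45 to -0.30). It rested on few barcodes, with 44 UMIs in 13 wild-type and 67 UMIs in 22 mutant barcodes. In members of clusters 1 to 5 its level was at most 1.96 CPM in either library, so its counts lay mostly outside these clusters. The receptor gene Fgfr1 was at 138 CPM in wild-type and 162 CPM in mutant members and Fgfr2 at 30.8 CPM in wild-type and 21.6 CPM in mutant members.

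In the retinoic acid pathway, 10 of 16 listed genes were measured, 0 were 2-fold higher and 3 were 2-fold lower in mutant members, and the median log2 ratio of -0.46 was the lowest of the lists. Dhrs3, a retinaldehyde reductase gene that retinoic acid induces, was at 21.2 CPM in wild-type and 7.48 CPM in mutant members (log2 ratio -1.39, -1.86 to -1.14), against -1.01 in other mesenchyme. Aldh1a2 and Aldh1a3 encode enzymes that make retinoic acid. Aldh1a2 was at 8.86 CPM in wild-type and 3.68 CPM in mutant members (log2 ratio -1.07) and at 26.0 and 26.6 CPM in other mesenchyme (ratio 0.03). Other mesenchyme differed in its mix: 295 of 1763 wild-type and 736 of 1873 mutant barcodes were Osr1-positive with 3 or more markers. Within those barcodes, described above, Aldh1a2 was also lower in the mutant, so its lower level was not particular to members. Aldh1a3 was at 8.37 CPM in wild-type and 3.51 CPM in mutant members (log2 ratio -1.06, and -1.11 in other mesenchyme). Both genes rested on few counts in members. Aldh1a2 had 54 wild-type and 63 mutant UMIs, and Aldh1a3 had 51 UMIs in 17 wild-type barcodes and 60 UMIs in 34 mutant barcodes. The retinol dehydrogenase gene Rdh10 was highest, at 17.6 CPM in wild-type and 19.2 CPM in mutant members (log2 ratio 0.12, -0.19 to 0.46), with an interval that includes 0. Among the receptors, Rara (-0.01), Rarb (-0.26) and Rarg (-0.65) all had ratios under 2-fold. Ratios were above 0 for 2 of the 10 genes, beside 6832 of 12220 measured genes.

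In the Hedgehog pathway, 3 readout genes were followed. Ptch1 was at 23.8 CPM in wild-type and 26.7 CPM in mutant members, from 145 and 456 UMIs (log2 ratio 0.16, -0.11 to 0.44). Gli1, a transcription factor gene that the pathway induces, was at 7.71 CPM in wild-type and 7.89 CPM in mutant members, from 47 and 135 UMIs (log2 ratio 0.03, -0.46 to 0.54). For both genes the interval of the ratio includes 0. Hhip, which encodes a ligand-binding antagonist induced by the pathway, was at 9.35 CPM in wild-type and 3.97 CPM in mutant members, from 57 and 68 UMIs (log2 ratio -1.06, -1.76 to -0.70), and it was at 9.11 and 4.48 CPM in other mesenchyme. In other mesenchyme the median log2 ratio of the 3 genes was -0.0045, beside 0.03 in members. At 2000 UMIs, Ptch1 was detected in 5.15% of wild-type and 4.40% of mutant members, and in 4.59% and 4.52% of other mesenchyme. Detection at that depth was thus lower in mutant than in wild-type members, while the CPM level was higher. In all other passing barcodes, which include the epithelium, the log2 ratios were 1.31 for Ptch1 and 1.12 for Gli1, on the same libraries. Hhip and Gli1 RNA lay mostly in cluster 2, where Hhip was at 26.5 and 15.2 CPM and Gli1 at 23.5 and 21.0, while in cluster 1 Hhip was at 0.951 and 0.844 and Gli1 at 2.38 and 4.64.

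The medians of 4 matrix lists lay below that of all measured genes, and few of their genes were 2-fold apart. Of 24 interstitial collagen genes, 0 were 2-fold higher and 2 were 2-fold lower, with a median log2 ratio of -0.32, beside -0.42 for the same genes in other mesenchyme. Col14a1, which decorates collagen fibrils, was at 31.8 and 13.0 CPM (log2 ratio -1.23), and Col11a2 at 30.5 and 14.7 CPM (-1.01). Col9a3, of the cartilage-type collagen IX, was at 427 and 220.2 CPM (-0.95), and Col1a2 at 884 and 643 CPM (-0.46). Col26a1 was the highest of the list, at 275 and 418 CPM (0.60), and Col25a1 was next (0.57). Of 29 measured proteoglycan and matricellular genes, 3 were 2-fold lower and 0 higher, with a median of -0.22. They were Spp1, the osteopontin gene, at 45.1 and 16.8 CPM (-1.37), Epyc (-1.35) and Ogn (-1.07). The Spp1 ratio was lower still in other mesenchyme (-1.89) and in all other passing barcodes (-2.79), so it was not particular to members. In members of clusters 1 to 5, Spp1 was at 3.33, 37.1, 3.24, 11.5 and 31.4 CPM in the wild type. Mutant levels were 3.09, 29.1, 2.61, 14.9 and 2.12 CPM in the same order. Each wild-type level lay below that of all members, so part of the Spp1 counts came from outside these clusters. Fn1, the fibronectin gene, was at 218 and 135 CPM (-0.69), and in cluster 1 at 220.2 and 94.5 CPM. The calcium-binding matrix protein gene Smoc2 was the highest of the list, at 3.61 and 7.31 CPM (0.85). Tnc (0.13) and Ccn3 (0.06), which stood higher in members than in other mesenchyme, had ratios close to 0. Of 20 measured elastic fibre genes, 1 was 2-fold lower and 0 higher, with a median of -0.09. That gene was Lox, the lysyl oxidase gene, at 54.6 and 23.7 CPM (-1.17), whereas Eln, the elastin gene, was at 66.0 and 103 CPM (0.63). Of 20 measured basement membrane genes, 1 was 2-fold higher and 0 lower, with a median of -0.15. Frem1 was at 1.97 and 5.38 CPM, from 12 and 92 UMIs (1.10), and this ratio was 2-fold in 10 of 19 alternatives and as low as 0.16. The collagen IV gene Col4a1 was at 299.9 and 192 CPM (-0.64).

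Of 27 measured adhesion genes, 1 was 2-fold lower and 0 higher, with a median of -0.04. Itgbl1 was at 11.2 and 3.68 CPM (log2 ratio -1.38, and -0.06 in other mesenchyme), and Itga4, the alpha-4 integrin gene, was highest, at 21.8 and 39.7 CPM (0.84). Cdh11, the mesenchymal cadherin gene, was at 274 and 258 CPM (-0.09). Of 32 measured axon guidance genes, 1 was 2-fold lower and 0 higher, with a median of 0.08. Plxna4 was at 5.25 and 1.58 CPM (-1.28). The netrin receptor gene Dcc was highest, at 4.59 and 8.42 CPM (0.75). The ephrin receptor gene Epha4 was at 306 and 297 CPM (-0.04), and Robo2 at 130.1 and 163 CPM (0.33). Among 12 measured genes of sialomucins and membrane peptidases, the molecular families of Emcn and Mme, 0 were 2-fold apart and the median was 0.14. Cd34 was the highest, at 9.19 and 12.3 CPM (0.39), and the fibroblast peptidase gene Fap the lowest, at 19.4 and 14.3 CPM (-0.42).

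In the TGF-beta pathway, 0 of 19 measured genes were 2-fold apart, with a median of 0.08. The target gene Pmepa1 was lowest, at 171 and 114 CPM (-0.58), and the corepressor gene Tgif1 was highest, at 54.8 and 82.3 CPM (0.58). In the BMP pathway, 0 of 24 measured genes were 2-fold apart, with a median of -0.14. Gdf10, which encodes a TGF-beta family ligand, was at 132 and 139 CPM (0.08), the antagonist gene Chrdl1 at 10.0 and 5.61 CPM (-0.74), the receptor gene Bmpr1b at 7.87 and 11.2 CPM (0.45), and the follistatin gene Fst at 70.1 and 45.6 CPM (-0.61). In the IGF axis, 0 of 9 measured genes were 2-fold apart, with a median of 0.01. Igf1 was lowest, at 142 and 80.4 CPM (-0.82), while Igfbp5, a binding protein gene, was highest, at 1189 and 1503 CPM (0.34). Igf1 lay at 69.6 and 69.9 CPM in other mesenchyme (0.01). Among 11 angiogenic ligand genes, 0 were 2-fold apart and the median was -0.24. Pdgfc was lowest, at 20.3 and 10.9 CPM (-0.84), and Angptl4 highest, at 29.5 and 45.4 CPM (0.60). Angpt1 stood at 67.8 and 55.2 CPM (-0.29) and Vegfa at 66.8 and 66.5 CPM (-0.01). Angiogenic ligand genes were higher in members than in other mesenchyme by a median log2 ratio of 0.34 (wild type) and 0.30 (mutant). In this list Cxcl12 was at 298 and 281 CPM, against 183 and 224.

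Of 45 listed transcription factor genes of otic mesenchyme, 34 were measured, 0 were 2-fold apart and the median log2 ratio was 0.01. Pou3f4 (-0.30), Twist1 (-0.26) and Foxd1 (-0.43) were below 0, and Tbx18 (0.25), Ebf1 (0.50), Ebf2 (0.78) and Creb5 (0.59) above 0. The bone and cartilage regulator gene Runx2 was lowest, at 13.0 and 8.24 CPM (-0.60). Zic1 was at 5.41 and 10.6 CPM (0.86), and Meox1 at 4.43 and 9.29 CPM (0.92), the highest of the list. Of 10 measured fibrocyte product genes, 1 was 2-fold higher and 2 were 2-fold lower, with a median of -0.05. Penk was the higher one, and the lower ones were Ucma, at 14.1 and 3.39 CPM (-1.78), and the connexin 26 gene Gjb2, at 10.3 and 4.15 CPM (-1.14). Ucma was at 23.5 and 3.43 CPM in other mesenchyme (-2.46). Of 7 measured genes of D cyclins and CDK inhibitors, 0 were 2-fold apart, with a median of -0.25. Ccnd1 was at 156 and 126 CPM (-0.31), Ccnd3 at 87.3 and 107 CPM (0.29), Cdkn1a at 38.6 and 28.9 CPM (-0.41) and Cdkn1c at 554 and 549.8 CPM (-0.01). Among 24 immediate early and heat shock genes, 0 were 2-fold apart and the median was -0.10. Atf3 was at 138 and 76.0 CPM (-0.85), Egr1 at 984 and 590.4 CPM (-0.74) and Jund at 447 and 592 CPM (0.41). Among 20 glycolysis and hypoxia genes, 0 were 2-fold apart and the median was -0.10. Eno1, the enolase 1 gene, was at 60.2 and 121 CPM (0.99), and in all other passing barcodes its ratio was 0.83. Ndrg1, a hypoxia-induced gene, was lowest, at 6.23 and 3.80 CPM (-0.59). Of 7 gap junction genes, 2 were measured, Gja1 (-0.17) and Gjc1 (-0.01).

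**Figure D5:**
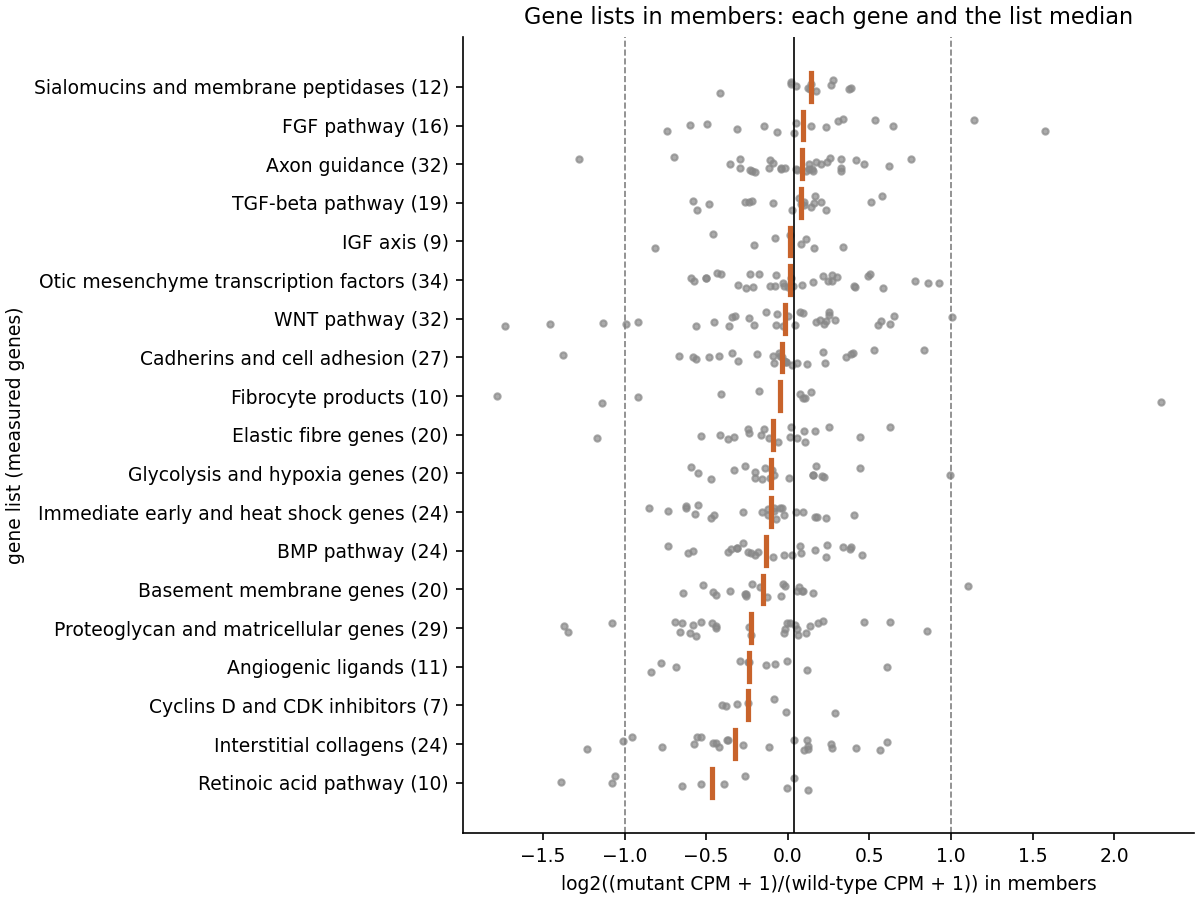
Log2 ratio of mutant over wild type in members (horizontal axis) for each measured gene (grey points, spread vertically at random) of 19 gene lists with 5 or more measured genes (vertical axis, number measured in parentheses); orange bars are list medians, the solid line is the median of all measured genes (0.04) and dashed lines mark 2-fold. Medians run from -0.46 for the retinoic acid pathway to 0.14 for sialomucins and membrane peptidases.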

How the data were processed

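Single cells of embryonic mouse cochleae were measured in 1 wild-type and 1 mutant library. The authors deposited raw UMI counts per gene and barcode, per the file headers, from Cell Ranger 6.0.0 for the wild type and 5.0.1 for the mutant. The submitters' processing notes name Cell Ranger 6.0.0 and mm10 for both. The step that separated cells from empty droplets is not stated in those sources. Of 18826 deposited barcodes, 15813 passed the limits on UMIs, genes and mitochondrial share. Members had total UMIs of 6095422 and 17110486.

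Counts were summed over the members of a library and scaled to CPM, and log2 ratios were taken with 1 CPM added. Measured genes had at least 50 UMIs, without mitochondrial, haemoglobin and sex-linked genes. No test was possible with 1 library per genotype, so 2-fold marks a difference of note. Ratios have exact conditional intervals, levels exact Poisson intervals and shares Clopper-Pearson intervals, all at 95%. Of these calculations, the log2 ratios and their intervals were tested on simulated counts.

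Genes were named by rank: the 10 highest and 10 lowest genotype ratios, and the 15 highest and 10 lowest ratios of members over other mesenchyme, taken from the library nearer 0. They needed at least 100 UMIs, 20 CPM in 1 library and a level of at least 0.5 times that of all other passing barcodes in the library where they are higher. The highest and lowest gene of each of 21 lists, the markers, Ptch1, Gli1, Hhip and Emx2 were also named; other genes of a list were picked after their values were seen, as were the genes compared across clusters and with Osr1-positive mesenchyme. The members and lists were chosen with earlier results of these data known.

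Both libraries were clustered together without batch correction and without the genes of the rule (scanpy 1.11.5, 1987 variable genes, 30 components, 15 neighbours, Leiden resolution 1). Scrublet called 0 doublets in either library on its automatic threshold, so doublets were kept in the members, and leaving out the 332 and 703 top-scored barcodes (38 and 94 members) was an alternative. The other alternatives changed the markers needed, depth, Osr1, mesenchyme genes, barcodes with RNA of other lineages, scaling, the added CPM and the count minimum. Coordinates are from GENCODE on GRCm38, which gave them for 32158 of 32285 gene identifiers. Python 3.11.15, numpy 2.4.6, scipy 1.17.1 and pandas 2.3.3 were used.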

Additional observations from a re-analysis of the deposited data

Results flagged for a closer look

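In 3 genes the genotype ratio had opposite signs in members and in other mesenchyme of the same libraries, at 2-fold or more in both; this difference was not tested, since each genotype has 1 library. S100a8, a gene of neutrophil granules, had a log2 ratio of mutant over wild type of -4.80 in members and 3.68 in other mesenchyme. Stfa1, a stefin gene, had ratios of -3.40 and 3.59, and Cstdc4, a cystatin gene outside the naming rule, had ratios of -3.50 and 1.63. In wild-type members, 460 of 461 UMIs of S100a8 and 144 of 145 of Stfa1 came from 1 barcode.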

How the results depend on the processing

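No paired analysis was possible because each genotype has 1 library, and no replicate could be left out. Over 19 alternatives, 3 of them added after the data were seen, 14 genes were 2-fold apart in all: Penk, Etv4, Pianp, Mpnd, Gstp1, Gm47283 and Gm10076 higher, and Notum, Dhrs3, Snhg3, Samd1, Wdr89, Gm11361 and Gm42418 lower. Hhip was 2-fold lower in 12 of the 19, from -1.31 to -0.02, Frem1 2-fold higher in 10, from 0.16 to 1.52, Ucma, Spp1 and Nkd2 were 2-fold apart in 14, Vtn in 17 and Ogn in 18. The counts of genes 2-fold higher and lower became 23 and 36 with 5 CPM added and 36 and 41 at a minimum of 200 UMIs. At a minimum of 10 UMIs 148 genes were lower, without barcodes holding over 5 UMIs per 10000 of other lineages 50 were lower, in cluster 1 alone 141 were higher, and in cluster 2 alone 43 were lower. The other counts stayed within 1.5 times.

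The share of members in the wild type and the mutant became 7.69% and 13.4% with 4 markers asked for, 8.87% and 17.9% for the rule at 2000 UMIs, 18.3% and 29.6% with Osr1 allowed, 10.3% and 17.3% with 3 mesenchyme genes asked for and 17.7% and 25.1% without barcodes of mixed lineage. It was 25.1% in the mutant at the common floor of 3352 UMIs. With 3 of the other 4 markers asked for, it was 9.92% and 16.2% without Mme, 10.6% and 18.1% without Cdh6, 9.13% and 15.8% without Emcn, 10.6% and 17.8% without Efemp1, and 8.20% and 13.9% without Tgfbi. The mutant share was the higher in each of these.

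The log2 ratios of S100a8, S100a9, Stfa1 and Cstdc5 turned positive under the following alternatives. In that order they were 0.64, 0.70, 0.50 and 0.24 with 4 markers, 0.56, 0.87, 0.93 and 0.15 for the rule at 2000 UMIs, and 0.78, 0.69, 1.08 and 0.45 without mixed barcodes. They were 1.24, 0.74, 0.93 and 0.35 without Cdh6 in the rule, 0.89, 0.69, 0.75 and 0.0065 without Efemp1, and, for the first 3 genes, 0.63, 0.68 and 0.57 without Tgfbi. They were 0.43, 0.64, 0.99 and 0.19 in cluster 1, 1.41, 0.64, 0.64 and 0.64 in cluster 2, and 1.08, 0.61, 0.86 and 0.014 without each gene's highest barcode. Tafa4 turned to -0.19 in cluster 2. Each genotype rests on 8 cochleae pooled into 1 library, so animal, dissection, capture and genotype cannot be told apart. Depth limits genes under 50 UMIs, which were not measured.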
